A study of Mus musculus with 60 samples.

Results

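The Dlk1-Dio3 imprinted domain of mouse chromosome 12 was represented in these RNA-seq tables by 4 genes, Meg3, Rian, Mirg and Dlk1. They were chosen by name and position, as the listed imprinted genes of the domain, and they are 4 of the 14383 genes listed in at least 1 library and of the 536 listed on chromosome 12. Meg3 and Rian were listed in all 60 libraries, Mirg in 59 and Dlk1 in 9.

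Imprinted genes are transcribed from only one of the parental chromosomes. In the Dlk1-Dio3 domain the maternally inherited chromosome transcribes the noncoding RNAs Meg3, Rian and Mirg, which lie in one orientation and carry many small nucleolar RNAs and microRNAs in their introns and exons. The paternally inherited chromosome transcribes the protein-coding genes Dlk1, Rtl1 and Dio3, and a region between Dlk1 and Meg3 that is methylated on the paternal chromosome sets this pattern. Dlk1 is a transmembrane ligand related to the Notch ligands, Rtl1 is a retrotransposon-derived gene needed in the placenta, and Dio3 is an enzyme that inactivates thyroid hormone. Loss of imprinting in this domain is well known in cultured pluripotent stem cells.

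The libraries came from female hybrid ESCs of the F1 2-1 line, in which one chromosome set is of 129/Sv and the other of Cast/Ei origin, so that reads over polymorphisms can be assigned to a parental strain. All clones carried the M2rtTA transactivator at ROSA26 and a doxycycline-inducible transgene of Xist, the noncoding RNA that coats a chromosome in cis and silences its genes. Each clone was a single integration event, grown in 2i and LIF and left untreated or given doxycycline at 2 µg/ml for 5 days. Clones 87 and 68 (Tg-E) came from a line of normal karyotype and had the transgene targeted to the Xist locus of the Cast X, with a deletion at the promoter of that Xist allele. Clones 85, 86, 109 and 190 (Tg-X) and clones 203b, 267 and 339 (Tg-X;8) came from a line in which the 129 X is fused to a duplicated part of the Cast chromosome 8. The transgene lay at random sites of the intact Cast X in the Tg-X clones, in clone 109 directly beside the Xist locus. In the Tg-X;8 clones it lay on the fusion chromosome, within its chromosome 8 part in clones 203b and 267, and its site in clone 339 was not determined by the study. The Tg-12 clones came from a line with an extra chromosome 12, and clones 160, 228 and 273 had the transgene on a Cast copy of that chromosome and clone 55 on the 129 copy. The deposited labels do not name a clone 55: libraries labelled 38 (ESCs and neurons) and 20 (neurons), with a chromosome 12 transgene, are taken here as its sublines, because the study names a clone 55-38, and each result given for clone 55 or for neurons rests on that reading. The labels place the transgene of clone 160 on the X, whereas the study's methods list it with the chromosome 12 clones. Clones 160 and 267 also carried the Tsix-Stop allele, a truncated form of the Xist antisense gene, on the 129 X. Neurons were collected at day 14 of differentiation.

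The 48 ESC libraries (24 untreated, 24 treated, 13 clones) held 2284822 to 20637905 counts over listed genes and 731374 to 5830149 reads assigned to an allele. The 4 neuron libraries (2 untreated, 2 treated) held 25057343 to 32336068 counts and 7068712 to 10698003 assigned reads. Most clones had 2 untreated and 2 treated libraries, clone 203b had 1 treated library and clone 68 had 1 library in all, which was treated. The study calls the libraries of a clone biological replicates, so a p-value within 1 clone measures the spread between its libraries and not between integration events. Xist was listed in 15 of 24 untreated ESC libraries at 24.1 to 297 CPM (the htseqCount of a gene scaled to a library total of 1e6) and in 24 of 24 treated ones at 182 to 2160 CPM. The 2 treated libraries of clone 228 had the lowest treated values, 182 and 226 CPM, against 240 to 2160 CPM in the other 22. A further 8 libraries of 1 clone, whose labels conflict with each other, enter no comparison.

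On the GRCm38.p6 assembly, the patched form of the mm10 build used for the files, RefSeq places Dlk1 (gene ID 13386, protein coding, forward strand) at chr12:109452485-109463336. Meg3 (gene ID 17263, lncRNA, forward strand) lies at chr12:109540996-109571729, Rian (75745, lncRNA, forward strand) at chr12:109603945-109661716 and Mirg (100040724, lncRNA, forward strand) at chr12:109734981-109749458. Rtl1 (353326, reverse strand) runs from 109564900 to 109604418 across the end of Meg3, and Dio3 (107585, forward strand) lies at chr12:110279230-110281097. Strand-specific counting is not given in the sources used here, so reads of Rtl1 and of RNAs antisense to it cannot be told apart, and the same holds for Dio3 and its antisense neighbour Dio3os. The transgene of clone 228 lies 339 kb from Dlk1, 427 kb from Meg3, 490 kb from Rian and 621 kb from Mirg, on the side of Dlk1. That of clone 273 lies 10.96 Mb from Dlk1 and that of clone 55 lies 4.90 Mb from it, and the study mapped these 2 sites in part by approximation.

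A RefSeq promoter window of Meg3 and that of Dlk1 are shown because these genes, at either side of the regulatory region, were listed in so different a number of ESC libraries. Each runs from 250 bases before to 50 bases after a transcription start, 5′ to 3′, and capitals mark CG dinucleotides, the sites of DNA methylation. The Dlk1 window belongs to a transcript start inside the gene as placed above, downstream of its outermost start. The letters are those of the C57BL/6J reference and not of 129 or Cast.
Meg3 (chr12:109540746-109541045, forward strand): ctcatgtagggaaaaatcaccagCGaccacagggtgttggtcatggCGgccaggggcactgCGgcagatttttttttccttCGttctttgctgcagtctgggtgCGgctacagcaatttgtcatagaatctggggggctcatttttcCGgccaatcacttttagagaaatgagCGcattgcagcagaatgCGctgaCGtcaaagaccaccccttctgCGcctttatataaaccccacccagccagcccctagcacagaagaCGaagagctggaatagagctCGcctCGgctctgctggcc
Dlk1 (chr12:109452573-109452872, forward strand): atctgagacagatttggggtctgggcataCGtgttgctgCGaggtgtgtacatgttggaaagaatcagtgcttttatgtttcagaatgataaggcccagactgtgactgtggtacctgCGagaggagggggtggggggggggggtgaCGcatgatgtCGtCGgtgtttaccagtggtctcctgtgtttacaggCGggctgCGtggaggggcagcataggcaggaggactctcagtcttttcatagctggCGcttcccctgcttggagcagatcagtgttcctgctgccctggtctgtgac

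The Meg3 window shown held 13 CG dinucleotides and the Dlk1 window 9, against a median of 7 over all 32851 promoter windows of this length in the table. A second Meg3 window in the table, at chr12:109545148-109545447, held 1. Those of Rian, Mirg and Dio3 held 0, 10 and 25. The hexamer TGCCGC, the core of the motif of ZFP57, a zinc finger protein that keeps methylation at imprinted regions, occurred 1 time in the Meg3 window shown, on the reverse strand, and 0 times in the other 5 windows, searching both strands. It occurred in 11.6% of all windows, and a match of letters is not a binding site.

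RefSeq holds 114 mature microRNAs from 61 genes between Dlk1 and Dio3. The deposited tables list only 3 of these genes by name (Mir673, Mir1188 and Mir453), in at most 5 libraries each and in no ESC library. Their mature sequences are printed to show which microRNA products of the domain these libraries touch, with the seed (bases 2 to 8, which pair with target RNAs) in capitals. Mir1188 lies within Rian and Mir453 within Mirg, whereas Mir673 lies just past the RefSeq end of Meg3, in none of the 3 transcripts.
mmu-miR-673-5p: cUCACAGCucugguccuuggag
mmu-miR-673-3p: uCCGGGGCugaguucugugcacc
mmu-miR-1188-5p: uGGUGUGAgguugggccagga
mmu-miR-1188-3p: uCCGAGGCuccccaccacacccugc
mmu-miR-453: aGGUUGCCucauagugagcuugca
No seed was shared among the 5. These libraries measure longer RNAs, so the 8 to 17 assigned reads behind each listed entry are reads of precursor or host RNA and not levels of mature microRNAs.

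The first question was from which copy the genes were transcribed before Xist was induced. In every untreated ESC library the 3 noncoding RNAs were read mostly from Cast. The Cast share, the percent of assigned reads that carry the Cast base, ran from 83.6% to 95.01% for Meg3 (median 87.8%, 24 libraries), from 83.6% to 95.01% for Rian (median 87.3%, 24 libraries) and from 80.1% to 98.0% for Mirg (median 87.8%, 23 libraries). The reads behind a value were 88 to 1539 for Meg3. Over all 48 ESC libraries the lowest and highest values were 80.3% and 97.6% for Meg3, 79.5% and 97.4% for Rian, and 80.0% and 98.0% for Mirg (47 libraries).

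These shares have to be read against the whole chromosome. The median Cast share of chromosome 12 genes was 63.5% to 70.3% in the ESC libraries, while that of the other autosomes (chromosome 8 left out) was 49.3% to 50%. The chromosome 12 value was near 2 Cast reads in 3 in each clone set, with medians of 66.9% in Tg-E, 66.9% in Tg-X, 66.7% in Tg-X;8 and 66.6% in Tg-12 clones, so the share was that of 2 Cast copies and 1 copy of 129 in all 4 sets. The karyotypes stated by the study give an extra chromosome 12 for the line of the Tg-12 clones only, and copy number was not measured here. All 3 noncoding RNAs lay above the chromosome 12 median in every ESC library that listed them. The 95% Wilson interval of the share, which covers counting error only, was wholly above that median in 48 of 48 libraries for Meg3, 48 of 48 for Rian and 45 of 47 for Mirg. Meg3 was at or above at least 90.9% of the chromosome 12 genes of a library, Rian at or above 89.9% and Mirg at or above 85.7%.

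**Figure D1:**
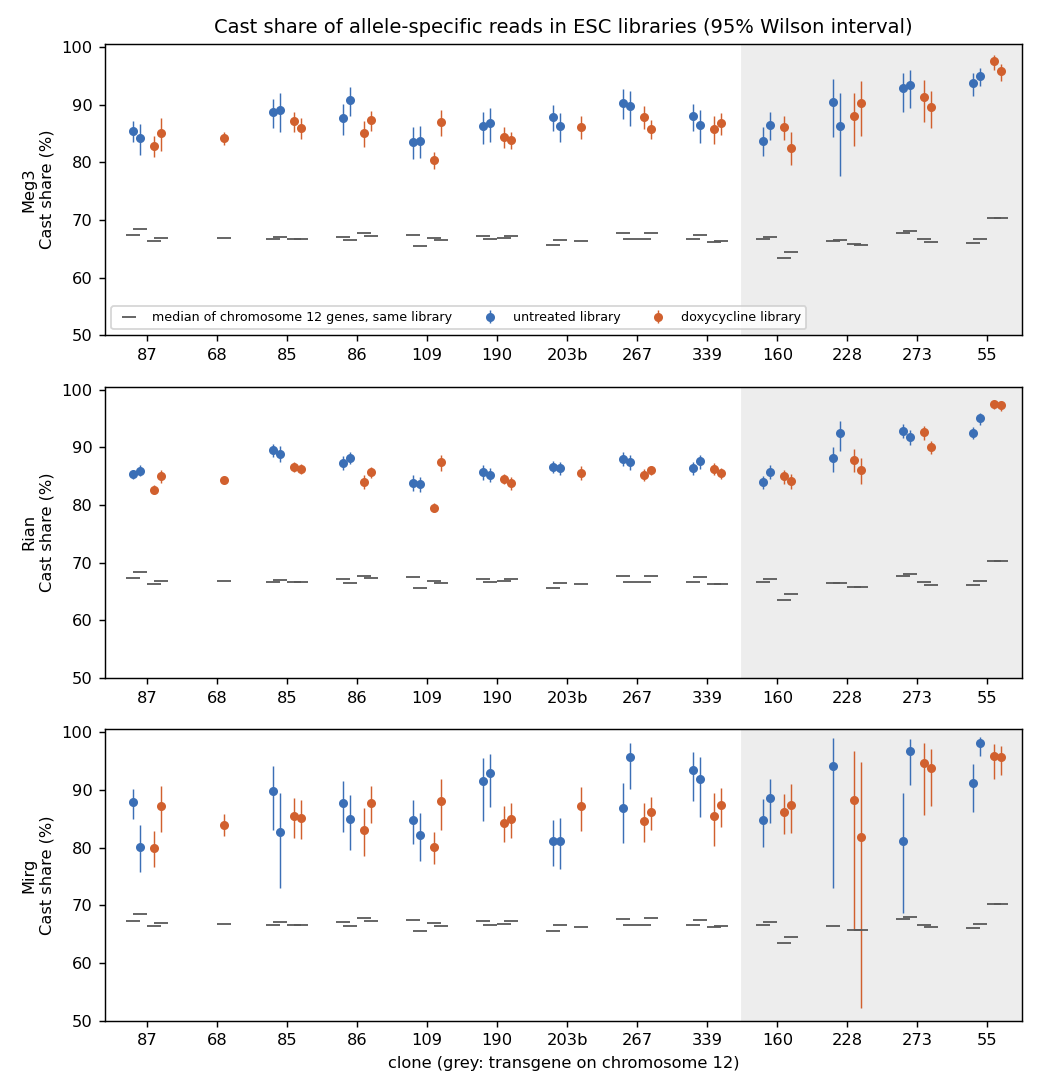
Cast share (percent of allele-assigned reads) of Meg3, Rian and Mirg in each ESC library, by clone, untreated in blue and doxycycline in orange, with 95% Wilson intervals as bars and a dash for the chromosome 12 median of the same library (grey ground, transgene on chromosome 12). All points of the 3 genes lie between 79.5% and 98.0%, above chromosome 12 medians of 63.5% to 70.3%, and clone 55 has the highest Meg3 and Rian values.

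The 3 noncoding RNAs had nearly the same share within a library. Meg3 and Rian differed by a median of 0.625 percentage points (at most 6.02, 48 libraries), Meg3 and Mirg by 2.17 points (at most 11.7, 47 libraries) and Rian and Mirg by 1.84 points (at most 11.7). Their shares moved together across libraries, with a Pearson r of 0.910 for Meg3 and Rian and of 0.632 and 0.642 for Meg3 and Rian with Mirg. These correlations are descriptions, since the points of a pair share a library and a clone.

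Imprinted genes of other domains had other allele shares. Of 24 such genes taken for comparison, 13 were listed in an untreated ESC library and 10 in at least 12 of the 24. The median Cast share of 8 of these 10 lay between 40% and 65% and that of 2 was below, while 0 were above. These genes have another baseline than Meg3, Rian and Mirg. The median share in ESC libraries was 49.3% to 50% on the other autosomes and 63.5% to 70.3% on chromosome 12. Igf2r, a maternally expressed receptor that clears IGF2, was at 53.7%, Mest at 52.1%, Peg10 at 56.2% and Snrpn at 50.9% (Snurf shares its reads with Snrpn). Plagl1, a paternally expressed transcription factor, was at 17.8% and Kcnq1ot1, the paternally expressed antisense RNA of the Kcnq1 domain, at 24.7%, which is the allele opposite to that of Meg3, Rian and Mirg.

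The clones differed in the Cast share of these RNAs before treatment. Clone 55 had the highest Meg3 share (93.8% and 95.01%) and clone 273 was next (92.8% and 93.4%). Clone 109 had the lowest (83.6% and 83.7%), and clones 87 and 160 had means of 84.8% and 85.1%. In the edgeR quasi-likelihood test over the 12 clones with untreated libraries, which compares Cast and 129 reads with Benjamini-Hochberg adjustment over 5012 genes, the share of both tested genes differed between clones (adjusted p = 3.64e-07 for Meg3 and 1.97e-10 for Rian). In this test 14.4% of all genes were called. Mirg was not tested there because 1 of the 24 libraries, an untreated library of clone 228, does not list it.

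The clones differed in level as well. Clones 228 and 273 had the lowest Meg3, with 162 and 302 CPM in clone 228 and 212 and 251 CPM in clone 273, all below the 400.1 CPM of the lowest library among the other 10 clones. Clone means of these other clones ran from 502 CPM in clone 55 to 985 CPM in clone 203b, and most neighbours in this order overlapped. For Rian, clone 228 stood alone at the bottom with 208 and 227 CPM, clone 273 followed with 371 and 472 CPM, which overlapped clone 55 (397 and 646 CPM), and the highest mean was 1347 CPM in clone 87. Mirg was listed in 1 untreated library of clone 228 at 4.67 CPM, was at 10.9 and 20.2 CPM in clone 273, and reached a mean of 86.3 CPM in clone 203b. So clone 228 was lowest for Rian and Mirg and overlapped clone 273 for Meg3. The levels differed between clones by the edgeR quasi-likelihood test (adjusted p = 2.37e-05 for Meg3 and 4.60e-07 for Rian), in which 70.4% of all genes were called.

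Against the mean of the other 11 clones, clone 228 was lower for Meg3 (log2 difference -1.43, SE 0.192, edgeR adjusted p = 1.8e-05) and for Rian (-1.82, SE 0.144, edgeR adjusted p = 6.2e-08), a contrast in which 45.1% of all genes were called. With 0 counts set where a gene is not listed, the difference of Mirg was -3.97 (SE 0.709, edgeR adjusted p = 8.2e-04). Clone 273 was lower for Meg3 (-1.42, SE 0.190, edgeR adjusted p = 6.67e-05) and for Rian (-0.80, SE 0.130, edgeR adjusted p = 3.06e-04), where 27.0% of genes were called. In clone 273, 4 of 7 ESC markers were called (3 lower and 1 higher, median log2 difference -0.19), and the 1 progenitor marker tested was lower (-0.53). Both contrasts were chosen after the order of the clones was known. In clone 228, 6 of the 7 ESC marker genes on the list (Pou5f1, Sox2, Nanog, Klf4, Esrrb, Zfp42 and Tfcp2l1) were also lower (median log2 difference -1.15). The summed level of the list was 2911 to 3246 CPM over its 4 libraries, treated and untreated. Over all untreated ESC libraries it was 2911 to 5875 CPM (median 4760), and the lowest of these is a library of clone 228. An untreated library of clone 228 is the shallowest of all, at 2284822 counts. The part of these in the levels of Meg3, Rian and Mirg was not tested, and in bulk RNA fewer cells that express a gene and less RNA per cell cannot be told apart.

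**Figure D2:**
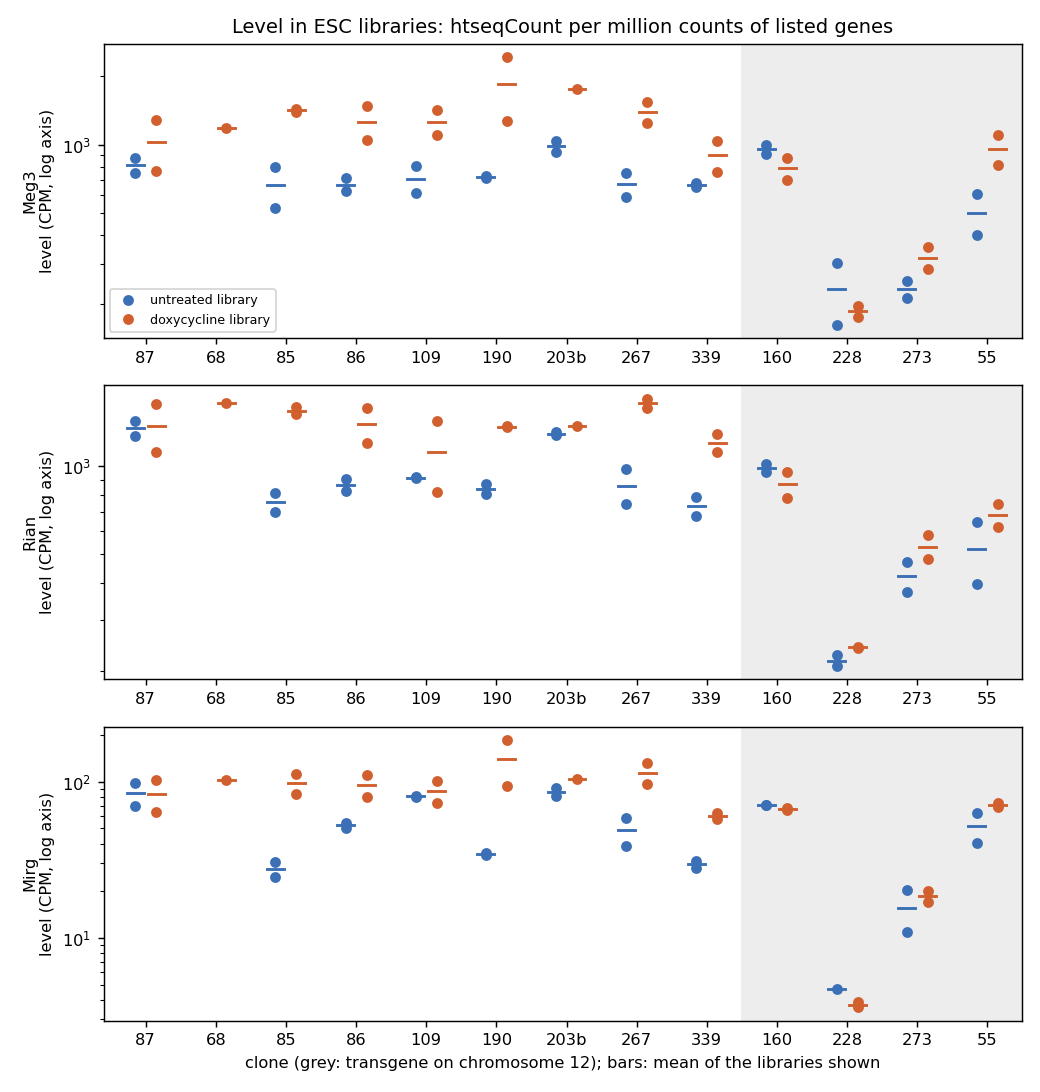
Level of Meg3, Rian and Mirg (CPM of the deposited htseqCount over listed genes, log axis) in each ESC library by clone, untreated in blue and doxycycline in orange, with bars at the mean of the libraries shown. Clone 228 has the lowest Rian and Mirg, with untreated Rian at 208 and 227 CPM, and the treated points of the X and X;8 clones lie mostly above the untreated ones.

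The levels of Meg3, Rian and Mirg moved together across the 48 ESC libraries, with a Pearson r of log2 CPM of 0.914 for Meg3 and Rian (48 libraries), 0.916 for Meg3 and Mirg and 0.901 for Rian and Mirg (47 libraries). Across the 12 clone means of untreated ESCs, 15 of 5011 genes had a pattern of log2 CPM closer to that of Meg3 than Rian had (r = 0.929, rank 16). The closest were Cd38 (r = 0.972), Bcat1 (0.968), Ccnd3 (0.960), Ankrd13a (0.958) and Mfsd1 (0.953), which lie on chromosomes 5, 6, 17, 5 and 3. All values share the same 12 clone means and their scaling. Per kb of RefSeq exons the median level in ESCs was 255 CPM per kb for Rian, 60.4 for Meg3 and 52.1 for Mirg. The tables list only a 3′ interval for each gene (339 bases for Meg3, 966 for Rian and 363 for Mirg), and over those lengths the order of the first pair turned, with 2307 CPM per kb for Meg3, 946 for Rian and 187 for Mirg. Mirg had the lowest value per kb on both lengths.

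Dlk1 was almost never listed in ESCs, and the other protein-coding genes of the domain were listed in some libraries. A gene is listed only where at least 8 reads could be assigned to an allele, so an unlisted gene is not a gene at 0. Dlk1 was listed in 1 of 48 ESC libraries, the treated library of clone 68, which is the deepest of the ESC libraries at 20637905 counts. There it had 86 counts (4.17 CPM), and 12 of its 13 assigned reads were Cast (92.3%). Dio3 was listed in 23 ESC libraries, with a Cast share of 76.9% to 100% (median 94.7%), Rtl1 in 10, Dio3os in 7 and Begain, the gene on the far side of Dlk1, in 1. The listed reads of Dio3, taken as paternally expressed, were thus of the same allele as those of the maternally expressed noncoding RNAs, on 12 to 177 assigned reads a library, and its antisense neighbour Dio3os had 84.6% to 100% Cast reads.

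Clone 228 has its Xist transgene 339 kb from Dlk1 on a Cast copy, and the comparison of treated with untreated cells asks whether reads of that copy were lost. Before treatment the Meg3 share was 90.5% (124 of 137 reads) and 86.4% (76 of 88), and after treatment 88.1% (170 of 193) and 90.3% (139 of 154). The treated values lay between the untreated ones. The Rian share was 88.1% and 92.4% before and 87.8% and 86.0% after treatment. Both treated values lay below both untreated ones, as did those of the chromosome 12 median. How many of all genes were without overlap in clone 228 was not counted. Mirg had 16 Cast reads of 17 (94.1%) in the 1 untreated library that lists it and 15 of 17 (88.2%) and 9 of 11 (81.8%) after treatment, which these few reads cannot separate. The chromosome 12 median was 66.4% and 66.5% before and 65.8% in both treated libraries.

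In the edgeR quasi-likelihood test of treatment by allele, the log2 shift towards Cast in clone 228 was 0.04 (SE 0.419, unadjusted p = 0.933, adjusted p = 1) for Meg3 and -0.37 (SE 0.180, unadjusted p = 0.0504, adjusted p = 0.811) for Rian. Neither was called, nor did DESeq2 call them, and the edgeR test called 0.0704% of all genes tested. The interval of the Meg3 share in a single library is wide at this depth (84.4% to 94.4% on 137 reads, 95% Wilson), so small losses of Cast reads were not detectable.

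The levels in clone 228 gave no call either. Meg3 was at 162 and 302 CPM untreated and at 175 and 196 CPM treated (log2 change -0.21, SE 0.218, edgeR unadjusted p = 0.371, adjusted p = 0.735), Rian at 208 and 227 CPM untreated and 240.4 and 242 CPM treated (0.23, SE 0.121, edgeR unadjusted p = 0.0984, adjusted p = 0.486), and Mirg at 4.67 CPM untreated and 3.57 and 3.84 CPM treated. The test called 0.088% of all genes. The Meg3 estimate depended on which untreated library was kept. The second one, at 302 CPM for Meg3, is the shallowest of all libraries, at 2284822 counts. With it as the only untreated library, Meg3 was at -0.53 and Rian at 0.26. With the first as the only untreated library, Meg3 was at 0.17.

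The neighbours of the domain in clone 228 were examined in the same way. Of 22 genes listed within 1 Mb of the span from Dlk1 to Mirg, 6 were listed in all 4 libraries of clone 228 (Evl, Yy1, Wars, Ppp2r5c, Dync1h1 and Hsp90aa1). None of them was called for allele shift (log2 -0.29 to 0.07, smallest edgeR adjusted p = 0.595) or for level (-0.58 to 0.43, smallest edgeR adjusted p = 0.199). Wars, a tRNA synthetase gene 184 kb from the transgene and nearest to it among these, had a mean Cast share of 74.5% ± 4.96 (SD, n = 2) before and 71.9% ± 2.32 (SD, n = 2) after treatment. Before treatment the level of Wars was lower in clone 228 than in the mean of the other clones (log2 -1.13, edgeR adjusted p = 5.11e-06), as was Ppp2r5c (-0.30, edgeR adjusted p = 0.0366), whereas Evl (0.59, edgeR adjusted p = 1.0e-04) and Hsp90aa1 (0.34, edgeR adjusted p = 0.00678) were higher, and Yy1 and Dync1h1 were not called.

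The 3 clones with a transgene on a Cast copy of chromosome 12 (160, 228 and 273; 12 libraries) were then pooled. The mean Meg3 share was 88.9% untreated and 88.0% treated, a difference of -0.919 percentage points (exact two-sided permutation of treatment within clones, p = 0.407). The mean Rian share was 89.1% and 87.6% (-1.55 points, exact permutation p = 0.130), and that of Mirg 89.9% and 88.7% (-1.21 points over 11 libraries, exact permutation p = 0.75). Leaving out 1 library at a time, the difference ran from -1.61 to -0.228 points for Meg3 (nearest to 0 without the first untreated library of clone 228) and from -2.27 to -0.835 points for Rian (nearest to 0 without the second one). The smallest p this permutation can give is 0.00926. By edgeR the log2 shifts were -0.13 for Meg3 (SE 0.137, adjusted p = 0.947) and -0.17 for Rian (SE 0.0865, adjusted p = 0.766), in a fit that called 0.246% of all genes. Neither was below an unadjusted p of 0.05 in edgeR (0.393 and 0.0608) or in DESeq2, which called 0.0829% of the genes it tested. Mean Rian was lower after treatment in 3 of 3 clones and Meg3 in 2 of 3, with clone 228 the exception. Leaving out clone 160, whose label places its transgene on the X, gave shifts of -0.30 for Meg3 (edgeR adjusted p = 0.902) and -0.28 for Rian (edgeR adjusted p = 0.601).

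In clone 55 the transgene lies on the single 129 copy, so a loss of 129 reads raises the Cast share. In its ESCs the Meg3 share was 93.8% and 95.01% untreated and 97.6% and 95.8% treated, the Rian share 92.5% and 95.01% untreated and 97.4% and 97.2% treated, and the Mirg share 91.2% and 98.0% untreated and 96.0% and 95.8% treated. The treated values of Meg3 and Rian lay above the untreated ones, as did the chromosome 12 median, while those of Mirg lay between them. How many of all genes were without overlap was not counted. The chromosome 12 median moved from 66.1% and 66.8% to 70.3% in both treated libraries. By edgeR the Rian share rose (log2 shift 1.29, SE 0.184, adjusted p = 0.0116), 1 of only 2 genes called among 6819 (0.0293%), while the shifts of Meg3 (0.73, SE 0.271, adjusted p = 0.996) and Mirg (0.15, SE 0.610, adjusted p = 0.996) were not called. DESeq2 did not call Rian (adjusted p = 0.146). Within each treatment 1 of the 2 libraries had a higher ratio of htseqCount to assigned reads, and with that class of library in the model the edgeR adjusted p of Rian was 0.205. Rian was still called without the second untreated library (edgeR adjusted p = 1.5e-04) but not without the first (0.180), nor without either treated one (1 and 0.968).

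The shift of Rian in clone 55 ESCs differed from that in the Cast chromosome 12 clones by 1.47 on the log2 scale (SE 0.226, edgeR adjusted p = 7.50e-04), in a test of the difference that called 0.216% of genes. For Meg3 the difference was 0.86 (SE 0.313, edgeR adjusted p = 0.723). With clone 160 left out, the difference of Rian was 1.58 (edgeR adjusted p = 0.0020).

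In the 8 clones with the transgene on an X or X;8 chromosome (87, 85, 86, 109, 190, 203b, 267 and 339; 16 untreated and 15 treated libraries), chromosome 12 carries no transgene. Doxycycline induces Xist there too, at a median of 1193 CPM in treated libraries against 329 CPM in the treated Cast chromosome 12 clones. The parental lines differ in karyotype as well, so an effect of doxycycline alone cannot be told apart here. The Meg3 share was 83.6% to 90.9% (median 87.2%) untreated and 80.3% to 87.9% (median 85.8%) treated, and the Rian share 83.6% to 89.5% (median 86.5%) and 79.5% to 87.4% (median 85.5%). The ranges overlapped widely. The mean share fell by 1.73 percentage points for Meg3 (permutation of treatment within clones, 100000 draws, two-sided p = 0.00329, 0.00987 after Benjamini-Hochberg adjustment over the 6 tests of share) and that of Rian fell by 1.66 points (permutation p = 0.00155, adjusted 0.00930), and was lower in 7 of 8 and in 8 of 8 clones. Mirg had a difference of -1.94 points (permutation p = 0.161, adjusted 0.242) and was lower in 6 of 8 clones. The edgeR shifts were -0.22 for Meg3 (SE 0.063, adjusted p = 0.0408), -0.21 for Rian (SE 0.047, adjusted p = 0.00781) and -0.25 for Mirg (SE 0.134, adjusted p = 0.421), where 3.34% of all genes were called.

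A library property moved with treatment here. The ratio of htseqCount to assigned reads fell into 2 classes, 2.93 to 3.14 in 30 ESC libraries (19 untreated, 11 treated) and 3.36 to 3.74 in 18 (5 untreated, 13 treated). With the class as a covariate, chosen after seeing the data, the edgeR adjusted p was 0.161 for Meg3 and 0.060 for Rian, and 81 instead of 184 genes were called. Leaving out 1 library at a time, Rian was called in 31 of 31 fits and Meg3 in 14 of 31 (edgeR adjusted p = 0.0024 to 0.0941). The differences in share were -1.73 and -1.66 points in these clones and -0.919 and -1.55 points in the Cast chromosome 12 clones for Meg3 and Rian, and these 2 sets were not tested against each other.

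The level of the noncoding RNAs rose upon doxycycline in the X and X;8 clones. Over these 8 clones Meg3 rose by 0.85 (SE 0.104, edgeR adjusted p = 5.27e-07), Mirg by 0.91 (SE 0.164, edgeR adjusted p = 7.27e-05) and Rian by 0.57 (SE 0.097, edgeR adjusted p = 3.28e-05) on the log2 scale. This was among many changes, since 48.1% of all genes tested were called. The ratio of clone means, treated over untreated, was 1.27 to 2.56 for Meg3 (median 1.84, higher in 8 of 8 clones and without overlap of libraries in 7). It was 1.02 to 2.05 for Rian (median 1.62, higher in 8 of 8, without overlap in 6) and 0.989 to 4.07 for Mirg (median 1.93, higher in 7 of 8, without overlap in 6). Mirg changed most in clone 190, from a mean of 34.1 to 139 CPM, and in clone 85, from 27.5 to 97.9 CPM.

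Over all 12 clones with both treatments the changes were 0.65 for Meg3 (SE 0.105, edgeR adjusted p = 1.6e-05) and 0.45 for Rian (SE 0.079, edgeR adjusted p = 5.3e-05), with 38.2% of genes called. In the 4 chromosome 12 clones alone they were 0.20 for Meg3 (SE 0.162, edgeR adjusted p = 0.828) and 0.16 for Rian (SE 0.096, edgeR adjusted p = 0.683), with 0.196% called. The ratio of Meg3 means was 0.802 for clone 228, 0.824 for 160, 1.38 for 273 and 1.91 for 55, so that 2 of these 4 clones were above 1. The change of Meg3 differed between the 2 sets by 0.67 (SE 0.196, edgeR adjusted p = 0.0281) and that of Rian by 0.43 (SE 0.154, edgeR adjusted p = 0.0726), in a test that called 8.62% of genes. The call of Meg3 rested on clone 160, and with it left out the difference was 0.51 (edgeR adjusted p = 0.151), and with 0 set for unlisted genes the edgeR adjusted p was 0.0845. Of the 7 ESC markers, 5 were higher upon doxycycline in the X and X;8 clones (median log2 change 0.25) and 0 of 7 were called in the chromosome 12 clones (median 0.10). With the library class as a covariate Meg3, Rian and Mirg were still called in the X and X;8 clones (edgeR adjusted p = 5.2e-06, 3.1e-04 and 1.5e-04). The share of all genes called in that covariate fit is not given here, so these calls cannot be weighed against it. Without the covariate 48.1% of all genes were called in the X and X;8 clones. Over all 12 clones 32.3% of genes were called with it.

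**Figure D3:**
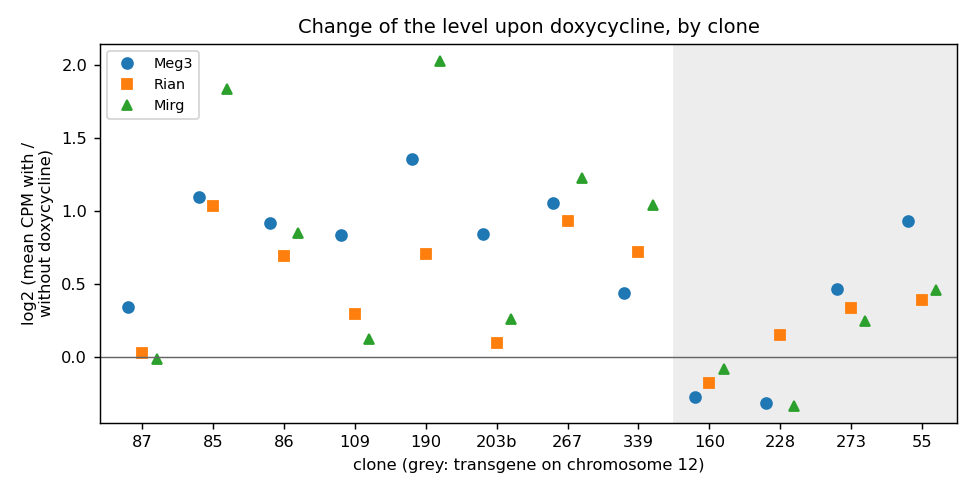
Log2 ratio of the mean treated to the mean untreated CPM of Meg3 (circles), Rian (squares) and Mirg (triangles) in each of 12 ESC clones, with a line at no change and grey ground for the chromosome 12 clones. All 8 X and X;8 clones lie above the line for Meg3 (ratios of 1.27 to 2.56), while clones 228 and 160 lie below it (ratios of 0.802 and 0.824).

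The neuron libraries that enter comparisons are those taken as clone 55, 1 untreated and 1 treated library of each label, 38 and 20. Their markers matched the label in part. All 7 ESC markers were lower than in clone 55 ESCs (median log2 difference -2.04), but their summed level was still 1107 to 2122 CPM, against 4740 to 5453 CPM in the ESCs. The 8 neuronal markers summed to 804 and 151 CPM in the untreated and to 75.9 and 105 CPM in the treated libraries of labels 38 and 20, against 40.4 to 46.7 CPM in the ESCs. Stmn2 was listed in no neuron library, and 7 of 8 neuronal markers were listed in the untreated and 4 of 8 in the treated libraries. The 6 progenitor and glia markers summed to 826 and 256 CPM untreated and to 154 and 188 CPM treated, against 51.5 to 143 CPM in the ESCs. The 6 endoderm and mesoderm markers summed to 257 and 109 CPM untreated and to 296 and 123 CPM treated, above the neuronal sum in both treated libraries, against 0.0 to 17.3 CPM in the ESCs. The treated neuron libraries thus hold fewer neuronal and progenitor and more ESC and endoderm and mesoderm transcripts than the untreated ones of the same label, and the part of this in each result below was not tested.

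The Cast share in untreated neurons was 80.5% (9980 of 12392 reads, label 38) and 82.8% (label 20) for Meg3, 82.0% and 84.4% for Rian, and 79.3% and 86.1% for Mirg. After treatment it was 96.2% and 97.7% for Meg3, 97.3% and 98.1% for Rian, and 95.9% and 98.0% for Mirg. All treated values lay above all untreated ones, and how many of all genes did so was not counted. The chromosome 12 median moved from 65.9% and 75.6% to 73.2% and 83.0%. Meg3, Rian and Mirg rose by more percentage points than that median in both labels. How many chromosome 12 genes rose as far was not counted. The untreated median of label 20 lay above the 63.5% to 70.3% of the ESC libraries. Untreated neurons did not lack Xist, which was at 1084 and 597 CPM there and at 1552 and 2331 CPM after treatment (labels 38 and 20).

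Treatment and allele were tested over the 4 neuron libraries with edgeR. The shift of Rian was called (log2 3.10, SE 0.180, adjusted p = 0.0326), the 1 gene of 11292 to be called (0.00886%). Those of Meg3 (2.84, SE 0.235, adjusted p = 0.122), Mirg (2.74, SE 0.376, adjusted p = 0.696) and Dlk1 (1.21, SE 0.918, adjusted p = 1) were not. The libraries of 1 label are taken as the same subline, so they form pairs, and with the label as a replicate block Meg3 (2.84, edgeR adjusted p = 1.3e-14), Rian (3.10, edgeR adjusted p = 6.1e-19) and Mirg (2.78, edgeR adjusted p = 4.2e-10) were called, while Dlk1 was not (1.24, edgeR adjusted p = 0.135), in a fit that called 1.23% of all genes. That paired fit has 1 residual degree of freedom. Without the block, Rian was not called when either untreated library was left out (edgeR adjusted p = 0.297 and 0.736 without label 20 and label 38), and Meg3 was called when either treated one was left out (0.0036 and 2.9e-04). DESeq2 without the block called the same 3 genes (adjusted p = 8.9e-15, 1.5e-23 and 2.9e-06 for Meg3, Rian and Mirg), among 0.0797% of all genes.

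**Figure D4:**
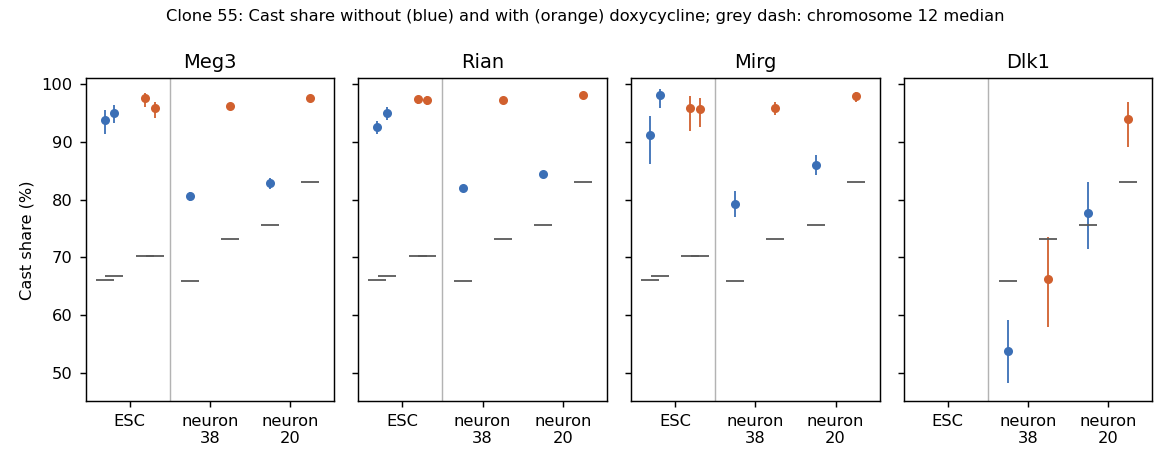
Cast share (percent) of Meg3, Rian, Mirg and Dlk1 in clone 55, in ESCs and in neurons of labels 38 and 20, untreated in blue and doxycycline in orange, with 95% Wilson intervals as bars and a grey dash for the chromosome 12 median of the library. In neurons Meg3, Rian and Mirg go from 79.3% to 86.1% untreated to 95.9% to 98.1% treated, while the untreated Dlk1 values of the labels lie at 53.7% and 77.7%.

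Dlk1, which ESCs so rarely listed, was listed in all 4 neuron libraries, with 460 to 1071 counts. Its Cast share was 53.7% (166 of 309 reads; 95% Wilson interval 48.2% to 59.2%) in untreated neurons labelled 38 and 77.7% (150 of 193; 71.3% to 83.0%) in those labelled 20. After treatment it was 66.2% (90 of 136; 57.9% to 73.6%) and 94.0% (142 of 151; 89.1% to 96.8%). The share was higher after treatment in both labels, and the label 20 untreated value lay above the label 38 treated one. In untreated neurons labelled 38, Dlk1 was below the chromosome 12 median of 65.9% while Meg3 was at 80.5%, and 8.21% of chromosome 12 genes of that library had a share at or below that of Dlk1. The untreated neurons labelled 20 did not show this. Their chromosome 12 median of 75.6% lay within the Dlk1 interval, and 68.0% of genes were at or below Dlk1. After treatment the median of label 38, 73.2%, lay within the Dlk1 interval, and that of label 20, 83.0%, lay below it. Dio3 was at 63.6% and 75.0% untreated and 88.2% and 100% treated, on 21 to 51 reads.

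The levels in neurons were 1583 and 1078 CPM untreated and 677 and 959 CPM treated for Meg3, 935 and 1222 CPM and 650.3 and 973 CPM for Rian, 54.6 and 63.6 CPM and 41.3 and 52.2 CPM for Mirg, and 37.1 and 30.9 CPM and 14.2 and 22.7 CPM for Dlk1. In both labels the treated value of each of the 4 genes was below the untreated one, and how many of all genes fell in both labels was not counted. The log2 changes were -0.71 for Meg3 (SE 0.292), -0.42 for Rian (SE 0.274), -0.34 for Mirg (SE 0.222) and -0.89 for Dlk1 (SE 0.316), each with an edgeR adjusted p of 1. The edgeR test called 0 of 11292 genes (0.0%) with 260 at an unadjusted p under 0.05, Dlk1 among them (unadjusted p = 0.0370). With the label as a replicate block edgeR called 0 genes, and DESeq2 called 23 genes, 0 of them members.

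Against clone 55 ESCs, with treatment in the model, Rian was higher in neurons (log2 0.74, SE 0.219, edgeR adjusted p = 0.0300), in a test that called 34.4% of genes. The call of Rian was lost in 5 of 8 fits that left out 1 library (edgeR adjusted p = 0.0176 to 0.0828 over the 8). Meg3 (0.68, SE 0.335, edgeR adjusted p = 0.142) and Mirg (-0.15, SE 0.225, edgeR adjusted p = 0.634) were not called, and no fold is given for Dlk1 since ESCs of clone 55 do not list it. The Cast share in neurons differed from that in ESCs by -1.10 for Meg3 (SE 0.364, edgeR adjusted p = 0.124), -0.81 for Rian (SE 0.307, edgeR adjusted p = 0.183) and -1.22 for Mirg (SE 0.539, edgeR adjusted p = 0.255) on the log2 scale of the Cast to 129 ratio, none of them called, where 5.28% of genes were called. Without the treated neurons of label 20, Meg3 (-1.34, edgeR adjusted p = 0.0077) and Rian (-1.04, edgeR adjusted p = 0.0164) were called, as was Meg3 without the second treated ESC library (-1.58, edgeR adjusted p = 0.0253), in fits that called 5.15% and 2.94% of all genes. All these fits take 1 difference between the cell types for both treatments. In untreated cells the Meg3 share was 94.4% (mean) in ESCs and 80.5% and 82.8% in neurons. In treated cells it was 96.7% (mean) and 96.2% and 97.7%. Rian was at 93.8% against 82.0% and 84.4% untreated, and at 97.3% against 97.3% and 98.1% treated. Mirg was at 94.6% against 79.3% and 86.1% untreated, and at 95.9% against 95.9% and 98.0% treated. The untreated difference alone was not tested. The shift upon doxycycline in neurons minus that in clone 55 ESCs was 2.09 for Meg3 (SE 0.427), 1.81 for Rian (SE 0.312) and 2.57 for Mirg (SE 0.932). The edgeR test of that difference called 0 of 6777 genes (0.0%; 262 at an unadjusted p under 0.05, with unadjusted p = 7.17e-04, 2.1e-04 and 0.0212 for the 3 genes) and DESeq2 called 0, so the size of the shift was not shown to differ between the cell types after adjustment.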

How the data were processed

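RNA was sequenced as single 43-base reads. The authors aligned the reads to mm10-based 129 and Cast genomes with TopHat2 2.0.6 and SAMtools (no version given), and counted reads per gene with HTSeq 0.6.1. The deposited tables give, per library and gene, raw counts of Cast and 129 reads, their sum, the fraction of Cast reads computed by the authors, and the htseqCount. The authors required 5 reads per polymorphism, and 8 where a gene had only 1. In all files every listed gene has at least 8 assigned reads, and the deposited fraction equals Cast over the sum of both counts to within 5e-07.

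Groups (clone, treatment, cell type) were taken from the labels. Shares were computed from the Cast and 129 counts. CPM (counts per 1e6) are htseqCounts scaled by their sum over the listed genes of a library, not over all reads. Levels were tested with edgeR 4.0.16 (quasi-likelihood, TMM factors, clone as a term) on genes listed in every library of a comparison. Allele shifts were tested on the Cast and 129 counts with a term per library and a treatment by allele term, with R 4.3.3, and p-values were adjusted by the Benjamini-Hochberg method over all genes tested, with a threshold of 0.05. Mean shares were compared by permuting treatment within clones (scipy 1.17.1), and intervals are 95% Wilson intervals. PCR duplicates cannot be recognised, so intervals cover counting error only. The tests were tried on simulated data. DESeq2 1.42.0, other normalisation, a minimum of 20 reads, 0 for unlisted genes, levels from assigned reads, a replicate block and leaving out each library were alternatives. The contrasts of clones 228 and 273, the split of level changes by transgene chromosome, the tests of differences, the library class (split at 3.25 htseqCounts per assigned read) and the fits without clone 160 were added after seeing the data. The members, the marker and imprinted gene lists and the tests were chosen with earlier results of these data known. Named were the members, the other genes of the domain, every listed gene within 1 Mb of the span from Dlk1 to Mirg, the 5 genes most like Meg3, and the fixed lists.

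Replicate numbers of ESC libraries were not taken to pair samples, since not every pair deviated together: over 11 clones the correlation of same-numbered libraries' deviations ran from -0.560 to 0.665 for level (above 0.1 in 8 of 11) and from -0.0483 to 0.0495 for share (above 0.1 in 0 of 11). Neuron libraries of 1 label are taken as the same subline and form pairs. No pair of libraries agreed within sampling noise (chi-square per degree of freedom 2.51 to 60.1 over 25 pairs). Sequences are from RefSeq on GRCm38.p6.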

Additional observations from a re-analysis of the deposited data

Results flagged for a closer look

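The level change of Meg3 upon doxycycline differed between the X and X;8 clones and the chromosome 12 clones by a test of the difference itself, at 0.67 on the log2 scale (SE 0.196, edgeR adjusted p = 0.0281). Meg3 was higher in 8 of 8 clones of the first set and in 2 of 4 of the second. Without clone 160 the difference was 0.51 (edgeR adjusted p = 0.151).

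The allele shift of Rian differed between clone 55 ESCs, with the transgene on the 129 copy, and the 3 clones with it on a Cast copy, at 1.47 on the log2 scale (SE 0.226, edgeR adjusted p = 7.50e-04). The mean Cast share of Rian changed by 3.56 percentage points in clone 55 and by -3.34 to -0.320 points in the other 3.

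Dlk1, listed in 1 of 48 ESC libraries, was listed in 4 of the 8 libraries that enter no comparison, at 16.6 to 19.8 CPM (median 17.7). These 4 are the deeper ones, with 26467 to 37299 Meg3 counts against 3298 to 7002 in the rest, and listing depends on depth.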

How the results depend on the processing

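Of 335 recounts of the members called under an alternative, 289 stayed within 1.5 times the reported count, and of 724 single-gene values 662 kept their direction and their side of the threshold, 39 lost a call, 15 gained one and 8 changed sign. The 1 member called in clone 55 ESCs became 0 under DESeq2, with the library class and with a replicate block. The 2 called for allele in the X and X;8 clones became 1 under DESeq2, under TMM factors and with a replicate block, and 0 with the library class. The 1 called for allele in neurons became 3 under DESeq2 and with the block by label, and 2 under TMM factors and with the library class. The 1 called for level in neurons against ESCs became 0 with levels from assigned reads. The 1 called for the difference of the level change became 0 with 0 set for unlisted genes and 0 without clone 160. With levels from assigned reads Rian in clone 228 was at -0.013 (edgeR adjusted p = 0.985), and with at least 20 reads the share of Mirg in the Cast chromosome 12 clones differed by 2.73 points. The cause was not tested in any of these. Counts over all genes moved too: for allele, from 4 to 0 (DESeq2) and 13 (replicate block) in clone 228, 13 to 2 (DESeq2) in the Cast chromosome 12 clones, 184 to 112 (DESeq2) and 81 (library class) in the X and X;8 clones, and 1 to 139 (block) and 9 (DESeq2) in neurons. For level, they moved from 5 to 69 (DESeq2), 22 (library class) and 0 (assigned reads) in clone 228, from 10 to 79 (DESeq2) and 2 (block) in the chromosome 12 clones, from 410 to 114 (assigned reads), 202 (0 for unlisted genes) and 246 (without clone 160) for the difference of the change, from 1354 to 649 (block) and 631 (assigned reads) for clone 273, and from 2330 to 4165 in neurons against ESCs with 0 for unlisted genes.

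Leaving out 1 library at a time, the members called ranged from 0 to 1 in clone 55 ESCs, 1 to 2 in the X and X;8 clones, 0 to 3 for allele in neurons, 0 to 2 for the share in neurons against ESCs, 0 to 1 for the level there, and 0 to 2 for the level in clone 228. Signs changed for Meg3 in clone 228 (allele -0.22 to 0.36, level -0.53 to 0.17) and for Mirg (clone 55 ESCs -1.10 to 1.16, Cast chromosome 12 share -3.81 to 2.73 points). The share there ran from -1.61 to -0.228 points for Meg3 and from -2.27 to -0.835 for Rian.

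In ESCs, where the numbers were not taken to pair the samples, the replicate block gave edgeR adjusted p-values of 0.205 for Rian in clone 55 and of 0.0621 for Meg3 and 0.0096 for Rian in the X and X;8 clones, and it changed no other call of a member there. No block was fitted for neurons against ESCs, which share no number. The shallow libraries limit Mirg (11 to 17 reads in clone 228) and Dlk1 (13 reads in its only ESC library) most.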

Other observations

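The 8 libraries of the clone with conflicting labels were assigned to no group. Meg3 had a Cast share of 68.9% to 85.6% in them (median 77.6%) and a level of 661 to 1157 CPM, Rian 73.7% to 84.7% (median 79.4%) and Mirg 70.5% to 88.3% (median 78.59%). Meg3 was at 70.4%, 70.9%, 70.3% and 68.9% in the 4 libraries that list Dlk1 and at 84.3%, 84.6%, 85.6% and 84.8% in the 4 that do not. The values of these libraries thus fell into separate clusters, with chromosome 12 medians of 65.4% to 67.2% in all 8. The 8 libraries held 4611498 to 32224693 counts. The 4 that list Dlk1 had 26467 to 37299 Meg3 counts and the 4 that do not had 3298 to 7002. A gene is listed only with at least 8 assigned reads, so the split by listing of Dlk1 is also a split by depth. Dlk1, where listed, had 64.5%, 68.2%, 73.6% and 71.7% Cast reads on 120 to 186 reads. Dio3 was listed in all 8, at 78.5% to 100%.

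Small noncoding entries inside the domain were listed in few libraries. DQ267100, within Rian, was listed in 9 libraries (3 of ESCs) with a Cast share of 40% to 90.9% on 8 to 18 reads, and DQ267101 in 2. Mir1188 was listed in 5 libraries at 77.8% to 100%, Mir673 in 1 at 91.7% and Mir453 in 1 at 75.0%.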
